A study of Drosophila melanogaster with 17 samples.

Results

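The transcription factors (TFs) described here are 10 genes grouped as factors of the fly midgut and its absorptive cells or as regulators of enteroblasts: GATAe, srp, nub, cad, lab, zfh2, fkh, Hnf4, klu and mamo. They were chosen by symbol, through the FlyBase gene identifiers of an RPKM table (reads per kilobase of gene, scaled to library size), and make up 10 of its 17489 usable features. Its 17 libraries were made from GFP-labelled cells of the midgut of 3-day-old Drosophila adults, of which some 10000 were sorted for each library before the RNA was amplified. The groups were 3 wild type libraries of enteroendocrine cells (EEs), 3 wild type libraries labelled EC, 3 progenitor libraries labelled Sox100B-OE (Sox100B overexpression), 3 progenitor libraries labelled Sox100B-RNAi (Sox100B depletion) and 5 wild type progenitor libraries. For the libraries labelled EC, the title and cell type say enterocyte and the source name says enteroblast. The study's methods name prosV1-Gal4 for EEs, Myo31DF-Gal4 for ECs and esg-Gal4 for progenitors, but whether they describe these libraries is unsettled, and the driver of the Sox100B transgenes is not given in the sources used here.

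The adult midgut is renewed by intestinal stem cells, which give rise to enteroblasts that mature into absorptive enterocytes, and to hormone-secreting EEs through a separate branch. Embryonic endoderm is specified by GATA factors, and regional homeobox genes then divide the gut along its length. In the adult, POU, nuclear receptor and zinc finger factors accompany the step that takes an enteroblast to an enterocyte or keeps it from becoming an EE.

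The number of reads each column was scaled by, as implied by its smallest RPKM steps, was 17400000 to 29400000 in Sox100B libraries and 24100000 to 59500000 in wild type libraries. Mitochondrial features took 17.1 to 31.8% of assigned reads in the Sox100B libraries and stood at 0 in the wild type columns. Of the implied total, 94.5 to 95.1% was assigned to features in the Sox100B libraries, against 62.4 to 77.2% in wild type. No label names a batch, but the way the columns were made and the genotype cannot be told apart in a comparison of Sox100B libraries with progenitors. Sox100B-OE against Sox100B-RNAi sets columns of like assigned shares against each other. Sox100B itself was at 112 ± 29.9 RPKM in the libraries labelled Sox100B-OE and 28.9 ± 7.57 RPKM in Sox100B-RNAi, against 120 ± 54.1 RPKM in progenitors (SD, n = 3, 3 and 5). The mean under the OE label was thus not above that of wild type progenitors. Progenitor replicates 1 to 3 were at 77.3, 69.7 and 97.9 RPKM, and replicates 4 and 5 at 174 and 183 RPKM. The Sox100B-OE libraries, at 105, 85.5 and 144 RPKM, lay within that range. Summed over 10 enteroendocrine markers, levels were 79690 to 90565 RPKM in EEs, 980 to 2694 RPKM in libraries labelled EC, 8085 to 13571 RPKM in Sox100B-OE, 2475 to 4907 RPKM in Sox100B-RNAi and 5563 to 8892 RPKM in progenitors. The sums over 11 enterocyte markers overlapped between EEs (993 to 1996 RPKM) and libraries labelled EC (874 to 3991 RPKM), both above progenitors (307 to 753 RPKM). Progenitor replicates 1 to 3 summed to 753, 703 and 654 RPKM, and replicates 4 and 5 to 310 and 307 RPKM, so the progenitor libraries divided here as in Sox100B. The enterocyte sums were 728 to 1009 RPKM in Sox100B-OE and 373 to 943 RPKM in Sox100B-RNAi. Against progenitors, 3 of these markers were called higher in libraries labelled EC (Amy-p, alphaTry and lambdaTry, digestive enzymes) and 3 in EEs (Amy-p, mex1 and Npc1b). Myo31DF, the gene whose driver is named for ECs, was called lower in EEs (22.7 ± 5.41 RPKM) and in libraries labelled EC (26.4 ± 12.5 RPKM), against 75.5 ± 23.1 RPKM in progenitors. Progenitor markers, a list that includes Sox100B, summed over 4 genes to 53.6 to 80.0 RPKM in libraries labelled EC. The sums were 77.7 to 218 RPKM in progenitors and 8.44 to 13.4 RPKM in EEs. Of the 3 progenitor markers tested between libraries labelled EC and progenitors, 0 were called. The markers therefore leave the cell type of the libraries labelled EC unsettled.

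Groups were compared with limma on log2(RPKM + 1), and fold changes are on that scale, which understates the change of low genes. Calls required an adjusted p below 0.01 (Benjamini-Hochberg over all features tested) together with an absolute log2 fold change above 0.5, and errors of fold changes are standard errors (SE). Counts of members at an unadjusted p below 0.05 are also given. The share of all features at that threshold is not given, so these counts describe the members only. The labels do not say whether replicates came from separate sorts, so p-values measure the spread between these libraries, which may be technical. In sorted bulk samples, fewer cells of a type and less RNA per cell cannot be told apart. All comparisons with progenitors share the same 5 progenitor libraries.

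Every member was detected in every library. Implied reads per member and library ran up to 37799 for mamo, and the fewest were 35 reads of nub in an EE library. The RPKM that 3 reads would give was at most 0.0672 for any member and library, below every member value printed here. The group mean of fkh was the highest of the 10 members in each of the 5 groups, on the RPKM scale, and that of nub or srp the lowest. Between the highest and the lowest group mean, zfh2 spanned 15.4-fold, klu 11.8-fold and mamo 8.10-fold, whereas the other 7 members spanned 3.04-fold (GATAe) to 6.41-fold (srp). EEs had the lowest group mean of 5 members (nub, zfh2, fkh, Hnf4 and klu) and the highest of none. Libraries labelled EC had the lowest of 4 (GATAe, srp, cad and lab).

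**Figure D1:**
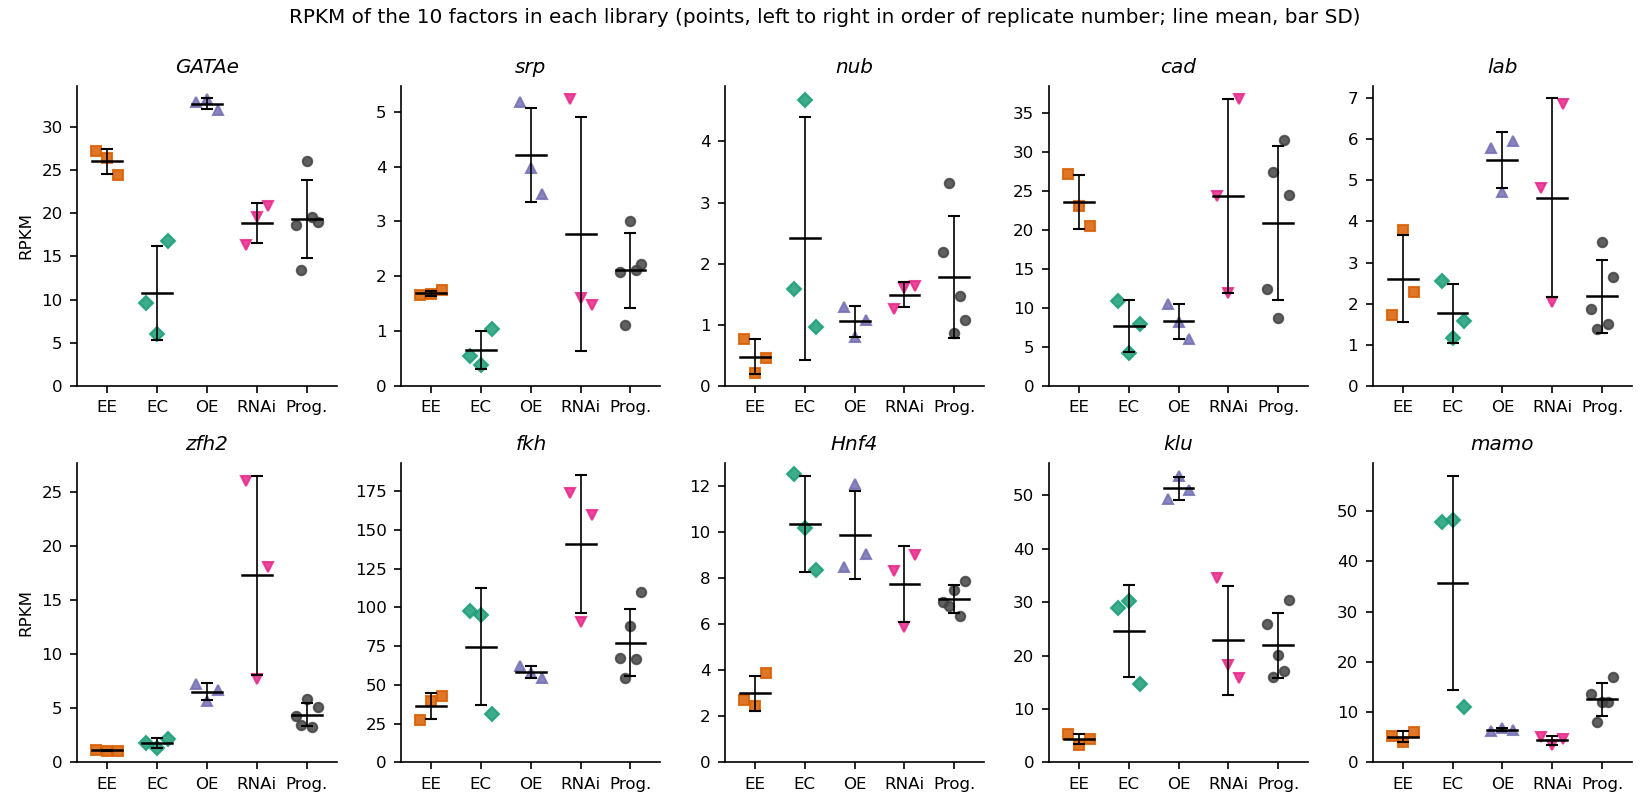
RPKM (y axes, each starting at 0) of the 10 factors in each library of the 5 groups (x axes), with group mean (line) and SD (bar). klu lies between 3.35 and 5.24 RPKM in EEs, below all other libraries, and the 3 libraries labelled Sox100B-OE lie between 49.3 and 53.6 RPKM, above all others.

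GATAe and srp encode GATA zinc finger factors. In the embryo srp specifies endoderm and is also needed for hemocytes and fat body, and GATAe acts after it in the endoderm and is kept on in the adult gut. The genes are neighbours on chromosome 3R of BDGP6, srp at 15986152 to 16004085 and GATAe at 16009105 to 16019133, both on the plus strand with 5019 bases between them. GATAe was at 27.2, 26.4 and 24.4 RPKM in EEs and 9.56, 5.98 and 16.8 RPKM in libraries labelled EC. It was at 32.9, 33.2 and 32.0 RPKM in Sox100B-OE and 16.3, 19.5 and 20.8 RPKM in Sox100B-RNAi, against 18.7, 13.4, 26.0, 19.6 and 18.9 RPKM in progenitors. The Sox100B-OE libraries were thus the highest of all and close to each other, and the libraries labelled EC overlapped progenitors only through their replicate 3. None of the comparisons called GATAe in its main fit, though some alternatives did. Its log2 fold change was 0.76 ± 0.20 for Sox100B-OE against progenitors (limma, adjusted p = 0.0114) and 0.77 ± 0.19 for Sox100B-OE against Sox100B-RNAi (adjusted p = 0.0157). For EEs against libraries labelled EC it was 1.30 ± 0.35 (adjusted p = 0.0135), with no overlap between the groups. Sox100B-OE against progenitors was called by limma with array weights (adjusted p = 0.0017), without progenitor replicate 3 (adjusted p = 0.0026) and with progenitor replicates 4 and 5 only (adjusted p = 0.0053). It was not called after median-of-ratios scaling (0.46, adjusted p = 0.094) or quantile normalization (0.31, adjusted p = 0.23).

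For srp, the values were 1.66, 1.67 and 1.75 RPKM in EEs and 0.552, 0.380 and 1.04 RPKM in libraries labelled EC. They were 5.17, 3.97 and 3.5 RPKM in Sox100B-OE and 5.23, 1.61 and 1.48 RPKM in Sox100B-RNAi, against 2.08, 1.10, 3.02, 2.12 and 2.22 RPKM in progenitors. The libraries labelled EC were again the lowest, all below the lowest progenitor library, and 1 of the 3 Sox100B-RNAi libraries reached the Sox100B-OE level. No comparison called srp in its main fit, though some alternatives did. The log2 fold change was -0.90 ± 0.25 for libraries labelled EC against progenitors (limma, adjusted p = 0.0159) and 0.76 ± 0.21 for Sox100B-OE against progenitors (adjusted p = 0.0158). Of its 5831 exonic bases, 938 are shared with lncRNA:CR44133 on the same strand. The part of this overlap in comparisons of Sox100B with wild type columns was not tested. Of the other GATA genes, pnr and grn stayed below the filter in all 6 comparisons, and GATAd was called higher in Sox100B-OE (11.4 ± 1.26 RPKM, against 3.88 ± 0.94 RPKM in progenitors; log2 fold change 1.36 ± 0.19, limma, adjusted p = 0.00023). Hemocyte markers, where srp is also active, summed to 0.62 to 11 RPKM over 6 genes in all libraries.

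The POU homeodomain factor nub (Pdm1, chromosome 2L, 12587625 to 12628135, plus strand) is widely used as an enterocyte marker. It was the least abundant member in 4 of the 5 groups. Its levels were 0.770, 0.214 and 0.458 RPKM in EEs and 1.59, 4.68 and 0.965 RPKM in libraries labelled EC. They were 1.30, 0.796 and 1.08 RPKM in Sox100B-OE and 1.25, 1.6 and 1.63 RPKM in Sox100B-RNAi, against 2.19, 3.32, 0.863, 1.47 and 1.08 RPKM in progenitors. All 3 EE libraries lay below every other library, while the libraries labelled EC reached beyond the top of the progenitor range and overlapped most of it. Against progenitors the log2 fold change was -0.86 ± 0.28 in EEs (limma, adjusted p = 0.027) and 0.21 ± 0.38 in libraries labelled EC (adjusted p = 0.67), neither of them called. For EEs against libraries labelled EC, nub fell below the filter, and without a filter its log2 fold change was -1.07 ± 0.41 (adjusted p = 0.099). No other POU gene of a list of 4 (pdm2, vvl, acj6 and pdm3) passed the filter in the comparisons among wild type groups. pdm3, known from neurons, was called higher in Sox100B-OE at 1.40 RPKM, against 0.245 RPKM in progenitors and 0.062 RPKM in Sox100B-RNAi.

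Of the homeobox genes, cad (2L, 20770731 to 20783135, plus strand) patterns the posterior embryo and restrains antimicrobial peptide genes in the adult gut. It was at 27.2, 23.1 and 20.4 RPKM in EEs and 10.9, 4.19 and 7.89 RPKM in libraries labelled EC, so these groups did not overlap. The difference was called, with a log2 fold change of 1.58 ± 0.33 (limma, adjusted p = 0.0046), and it was the only call of a member higher in EEs. It was no longer called after median-of-ratios scaling (1.15, adjusted p = 0.0145), after quantile normalization (1.01, adjusted p = 0.0219) or without any 1 of the EE libraries (adjusted p of 0.0163 to 0.0242). Nor was it called by limma with no filter (adjusted p = 0.0143), nuclear features rescaled (adjusted p = 0.0110) or 1 fit of all libraries (adjusted p = 0.0101). Among genes sharing no exonic base, limma gave 1.33 (adjusted p = 0.0175), again not called. In Sox100B-OE cad was at 10.5, 8.22 and 6.03 RPKM and in Sox100B-RNAi at 24.3, 11.9 and 36.8 RPKM, against 12.4, 27.4, 8.70, 31.5 and 24.5 RPKM in progenitors. Progenitor libraries differed from each other by more in cad than in any other member. The SD of log2(RPKM + 1) among them was 0.76, the 92.3rd percentile of 7331 features, beside a median of 0.34. Sox100B-OE had a log2 fold change of -1.13 ± 0.41 against progenitors (limma, adjusted p = 0.048) and -1.35 ± 0.38 against Sox100B-RNAi (adjusted p = 0.028), neither of them called in the main fits. Against progenitors, limma called it after quantile normalization (-1.71, adjusted p = 0.0038) and with progenitor replicates 4 and 5 only (-1.66, adjusted p = 0.00079). After median-of-ratios scaling it was not called (-1.40, limma, adjusted p = 0.0177).

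labial (lab, 3R, 6661427 to 6678590, minus strand) is the Hox gene known for the acid-secreting copper cells of the middle midgut. Its levels were low throughout: 1.74, 3.78 and 2.29 RPKM in EEs and 2.54, 1.16 and 1.58 RPKM in libraries labelled EC. In Sox100B-OE lab was at 5.79, 4.71 and 5.96 RPKM and in Sox100B-RNAi at 4.82, 2.05 and 6.87 RPKM, against 1.87, 1.38, 3.5, 1.51 and 2.65 RPKM in progenitors. All Sox100B-OE libraries lay above all progenitor libraries, and the Sox100B-RNAi libraries straddled both. The rise in Sox100B-OE was called, at a log2 fold change of 1.06 ± 0.22 against progenitors (limma, adjusted p = 0.0038), but not after median-of-ratios scaling (0.83, adjusted p = 0.018), after quantile normalization (0.26, adjusted p = 0.35) or without any 1 of the Sox100B-OE libraries (adjusted p of 0.0172 to 0.0321). Nor was it called by limma with nuclear features rescaled (0.87, adjusted p = 0.0114) or among genes sharing no exonic base (1.02, adjusted p = 0.0119). Against Sox100B-RNAi, the log2 fold change was 0.32 ± 0.33 (adjusted p = 0.51).

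Of 8 other Hox genes and Hox cofactors, only the cofactors exd and hth passed the filter in any comparison. exd, which carries Hox proteins to DNA, was called lower in EEs (23.2 RPKM, log2 fold change -1.04 ± 0.18) and in libraries labelled EC (16.0 RPKM, -1.56 ± 0.24), against 48.9 RPKM in progenitors. Its partner hth was called higher in EEs (5.86 RPKM, 2.17 ± 0.23), against 0.468 RPKM in progenitors. In Sox100B-OE, hth was called higher (1.26 RPKM, 0.63 ± 0.13) and exd lower (29.9 RPKM, -0.69 ± 0.17), and in Sox100B-RNAi hth was called higher (1.48 RPKM, 0.76 ± 0.15), all against progenitors.

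zfh2 (chromosome 4, 501810 to 540874, plus strand), a zinc finger homeodomain factor reported to act in enteroblast activation and differentiation, had the widest span of group means. It was at 1.19, 1.10 and 1.08 RPKM in EEs and 1.83, 1.32 and 2.19 RPKM in libraries labelled EC. It was at 7.26, 5.68 and 6.68 RPKM in Sox100B-OE and 26.0, 7.74 and 18.1 RPKM in Sox100B-RNAi, against 4.29, 3.46, 5.83, 3.31 and 5.15 RPKM in progenitors. EEs were the lowest and most uniform group, libraries labelled EC came next, and every Sox100B-RNAi library lay above every other library. Against progenitors, zfh2 was called lower in EEs, with a log2 fold change of -1.32 ± 0.19 (limma, adjusted p = 0.00034), and higher in Sox100B-RNAi, with 1.63 ± 0.34 (adjusted p = 0.0040). In libraries labelled EC it was -0.95 ± 0.24 (adjusted p = 0.0105), just outside the threshold. The higher level in Sox100B-RNAi was not called after median-of-ratios scaling (1.45, adjusted p = 0.0126) or quantile normalization (1.04, adjusted p = 0.0453). It was also not called without Sox100B-RNAi replicate 1 (1.28, adjusted p = 0.026) or replicate 3 (1.53, adjusted p = 0.034). Nor was it called by limma with no filter (adjusted p = 0.0102) or with nuclear features rescaled (adjusted p = 0.01004). With progenitor replicates 1 to 3 only (adjusted p = 0.0129) or 4 and 5 only (adjusted p = 0.0228), limma did not call it either. On the opposite strand, Tdg shares 2325 of the 12424 exonic bases of zfh2, 18.7% of them, and the part of this overlap in the comparison of Sox100B-RNAi with wild type columns was not tested. Sox100B-OE had a log2 fold change of -1.14 ± 0.38 against Sox100B-RNAi (adjusted p = 0.051).

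The fly FoxA gene fkh (3R, 28580976 to 28585264, minus strand), needed for gut development from the embryo on, was the most abundant member. It was at 27.1, 39.7 and 42.9 RPKM in EEs and 97.7, 95 and 30.9 RPKM in libraries labelled EC. In Sox100B-OE it was at 62.3, 57.7 and 54.5 RPKM and in Sox100B-RNAi at 174, 90.5 and 159 RPKM, against 67.7, 54.2, 87.8, 67.0 and 110 RPKM in progenitors. EEs lay below all progenitors, and Sox100B-OE lay below all Sox100B-RNAi libraries. Replicate 3 of the libraries labelled EC was at an EE level while the other replicates were among the highest of the wild type. fkh was called lower in EEs than in progenitors, at a log2 fold change of -1.04 ± 0.25 (limma, adjusted p = 0.0070). That call was near its threshold: it was lost on leaving out any 1 of the 3 EE libraries or progenitor replicate 1, 3, 4 or 5 (adjusted p of 0.0105 to 0.041), and kept without progenitor replicate 2. It was also lost with no filter (adjusted p = 0.0131), in 1 fit of all libraries (adjusted p = 0.0224) and with progenitor replicates 1 to 3 only (adjusted p = 0.0171). With replicate number as a block the call was lost as well (limma, adjusted p = 0.0143). Sox100B-OE against Sox100B-RNAi gave -1.21 ± 0.27 (adjusted p = 0.0102). Sox100B-RNAi against progenitors gave 0.85 ± 0.29 (adjusted p = 0.046), which was not called either. Of 8 other forkhead genes, 4 were tested for EEs against progenitors and 1 was called: FoxP, known from neurons, was higher in EEs (4.43 RPKM, against 0.464 RPKM in progenitors; log2 fold change 1.83 ± 0.23).

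Hnf4 (2L, 8687226 to 8709611, minus strand) encodes a nuclear receptor that controls lipid use and supports enterocyte maturation. The EE libraries were at 2.69, 2.44 and 3.86 RPKM and the libraries labelled EC at 12.5, 10.2 and 8.34 RPKM. It was at 8.49, 12.1 and 9.03 RPKM in Sox100B-OE and 8.31, 5.86 and 8.98 RPKM in Sox100B-RNAi, against 6.96, 6.78, 7.46, 6.35 and 7.88 RPKM in progenitors. EEs stood below all 14 other libraries, and libraries labelled EC above all progenitors. Hnf4 was among the steadiest of all genes within progenitors, with an SD of 0.11 on the log2 scale, at the 2.47th percentile. EEs had a log2 fold change of -1.03 ± 0.17 against progenitors (limma, adjusted p = 0.00075) and -1.50 ± 0.25 against libraries labelled EC (adjusted p = 0.0015), both called. The second call was lost without EE replicate 1 (adjusted p = 0.0116) or EE replicate 2 (adjusted p = 0.0151). Libraries labelled EC against progenitors gave 0.47 ± 0.22 (adjusted p = 0.099) on the deposited scale, and 0.92 once scaled by median of ratios (adjusted p = 0.0112). asRNA:CR44992 on the opposite strand shares 180 of its 5377 exonic bases.

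klu (3L, 10981171 to 11009188, minus strand), a zinc finger repressor expressed in enteroblasts and known to keep them from the EE fate, had the largest drop of all members in EEs against progenitors. It was at 5.24, 3.35 and 4.45 RPKM in EEs and 28.9, 30.2 and 14.7 RPKM in libraries labelled EC. In Sox100B-OE it was at 49.3, 53.6 and 50.9 RPKM and in Sox100B-RNAi at 34.6, 18.2 and 15.8 RPKM, against 25.9, 16.0, 20.1, 17.2 and 30.5 RPKM in progenitors. EEs lay below and Sox100B-OE above every other library, while libraries labelled EC and Sox100B-RNAi libraries overlapped progenitors. klu was 5.05-fold lower in EEs than in progenitors by group means, with a log2 fold change of -2.08 ± 0.24 (limma, adjusted p = 8.4e-05). It was 5.66-fold lower in EEs than in libraries labelled EC, with -2.21 ± 0.32 (adjusted p = 0.00071). In Sox100B-OE it was 2.34-fold higher than in progenitors, with 1.23 ± 0.22 (adjusted p = 0.0014). That call stood after median-of-ratios scaling (0.93, adjusted p = 0.0057) and quantile normalization (0.82, adjusted p = 0.0088), but not without Sox100B-OE replicate 2 (1.2, adjusted p = 0.0126) or replicate 3 (1.23, adjusted p = 0.0113). Sox100B-OE against Sox100B-RNAi gave 1.21 ± 0.29 (adjusted p = 0.0140), not called.

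mamo (X, 13846116 to 13990527, minus strand) encodes a BTB zinc finger factor named for its role in the germline, which also acts in EE subtypes. It was at 5.16, 4.0 and 6.13 RPKM in EEs and 47.8, 48.1 and 11.1 RPKM in libraries labelled EC. It was at 6.24, 6.80 and 6.44 RPKM in Sox100B-OE and 5.13, 3.39 and 4.69 RPKM in Sox100B-RNAi, against 13.7, 8.04, 11.9, 12 and 16.9 RPKM in progenitors. EEs and both kinds of Sox100B libraries lay below all progenitors. Replicates 1 and 2 of the libraries labelled EC were the highest of all, and their replicate 3 was at a progenitor level. mamo was called lower in EEs than in progenitors, with a log2 fold change of -1.13 ± 0.23 (limma, adjusted p = 0.0030), and lower in EEs than in libraries labelled EC, with -2.35 ± 0.52 (adjusted p = 0.0058). The first of these calls was lost without EE replicate 1 (adjusted p = 0.0138), without EE replicate 2 (adjusted p = 0.0212) or in 1 fit of all libraries (limma, adjusted p = 0.0190). The second was lost without any 1 of the EE libraries or without replicate 1 or 2 of the libraries labelled EC (adjusted p of 0.0175 to 0.0278). With no filter it was lost as well (limma, adjusted p = 0.0233). mamo was also called lower in Sox100B-RNAi than in progenitors, with -1.30 ± 0.24 (adjusted p = 0.0018). In Sox100B-OE it was -0.82 ± 0.21 (adjusted p = 0.0118), not called as deposited but called after median-of-ratios scaling (-1.09, adjusted p = 0.0019) and quantile normalization (-1.46, adjusted p = 0.00025). The Sox100B-RNAi call was lost without Sox100B-RNAi replicate 2 (-1.16, adjusted p = 0.0177) or replicate 3 (-1.35, adjusted p = 0.0137). Among genes sharing no exonic base it was also lost (-1.26, limma, adjusted p = 0.0154). Sox100B-OE against Sox100B-RNAi gave 0.49 ± 0.20 (adjusted p = 0.096).

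**Figure D2:**
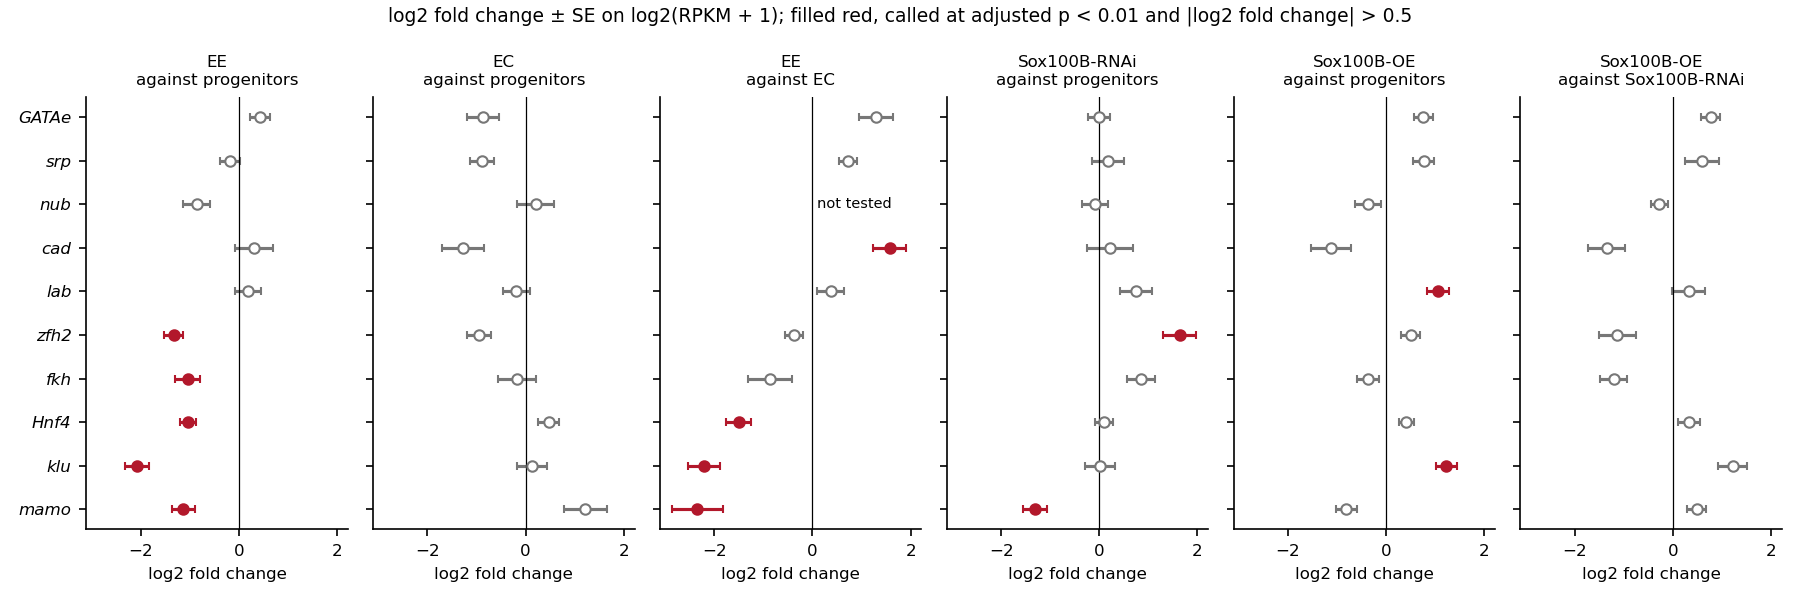
log2 fold change (x axis) with SE (bar) of each of the 10 factors (y axis) in the 6 comparisons, with filled red points for those called. klu has the lowest value for EEs against progenitors (-2.08) and mamo the lowest for EEs against libraries labelled EC (-2.35), and no point is filled for libraries labelled EC against progenitors or for Sox100B-OE against Sox100B-RNAi.

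Comparing EEs with progenitors asked which of these factors set apart the hormone-secreting cells from the pool they arise from. Of the 10 members, 5 were called lower (zfh2, fkh, Hnf4, klu and mamo) and 0 higher. Over all 8161 features tested, 34.6% were called, 20.1% higher and 14.5% lower. The members' median log2 fold change was -0.94, beside -0.05 over all features, and the share of members called lower lay above that of all features. Leaving out EE replicate 1 or EE replicate 2 brought the members called to 3. With any 1 library left out, 1460 to 3091 of all features were called, against 2823 with all libraries. At an unadjusted p below 0.05, limma gave 0 higher and 6 lower, a count with no share of all features beside it. The split of all calls turned with scaling, at 1640 higher and 1183 lower as deposited, against 1424 and 1736 after quantile normalization, but the same 5 members were called under median-of-ratios and quantile scaling.

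The members called lower in EEs were accompanied by other enteroblast and stem cell regulators. Of 14 on that list, 11 were tested and 7 were called lower in EEs than in progenitors, with a median log2 fold change of -2.07. The largest differences were those of Sox21a (-3.85 ± 0.47), a Sox factor of the enteroblast, Sox100B (-3.54 ± 0.35) and E(spl)m3-HLH (-3.47 ± 0.51), a target of Notch signalling. Sox21a and Sox100B also stand on the progenitor marker list, so these counts are not separate from the check on cell type. Progenitor markers summed to 8.44 to 13.4 RPKM over 4 genes in EEs, against 77.7 to 218 RPKM in progenitors. Markers of other tissues were also called higher in EEs than in progenitors. The muscle marker up was at 6.97 ± 1.66 RPKM in EEs, against 0.431 ± 0.233 RPKM in progenitors (log2 fold change 2.47 ± 0.19, limma, adjusted p = 7.1e-06). The fat body marker apolpp was at 13.3 ± 2.26 RPKM in EEs, against 2.17 ± 1.06 RPKM in progenitors (2.23 ± 0.28, limma, adjusted p = 0.00015) and 0.389 ± 0.061 RPKM in libraries labelled EC, and was called higher against both. Both levels exceeded the group means of nub, zfh2, srp, lab, Hnf4, klu and mamo in EEs. Summed over 9 genes, muscle markers were at 7.74 to 11.2 RPKM in EEs, against 1.3 to 2.93 RPKM in progenitors. Fat body markers summed over 5 genes were at 12.7 to 17.8 RPKM, against 1.24 to 3.99 RPKM. In EEs these sums were mostly up and apolpp, the only genes of their lists that passed the filter in this comparison. Below the filter, sls, bt and Mf had lower means in EEs than in progenitors, and Mhc, Act57B, Mlc1, Mlc2 and Tm2 had higher ones. The part of these markers in the members' values was not tested.

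The comparison of EEs with libraries labelled EC asked, by its labels, how hormone-secreting and absorptive cells differ. Of the 11 enterocyte markers, however, 2 were called higher in EEs, mex1 (535 ± 96.5 RPKM, against 101 ± 76.8 RPKM) and Npc1b (2.51 ± 0.34 RPKM, against 0.633 ± 0.347 RPKM). Amy-p was called lower (10.8 ± 4.12 RPKM, against 100.3 ± 83.5 RPKM), and the median log2 fold change over the 11 markers was -1.09. Of the 9 members tested, 1 was called higher (cad) and 3 lower (Hnf4, klu and mamo). Over all 7847 features, 32.7% were called, 26.5% higher and 6.22% lower. The members' median log2 fold change was -0.37, whereas that of all features was 0.45, or 0.06 once scaled by median of ratios. Calls over all features numbered 2080 higher and 488 lower as deposited, against 1417 and 873 after median-of-ratios scaling. Of the 11 other enteroblast and stem cell regulators tested, 7 were called lower in EEs and 1 higher (Stat92E, the TF of the JAK-STAT pathway, 1.04 ± 0.26). Sox21a (-2.93 ± 0.27) and E(spl)m3-HLH (-2.54 ± 0.30) had the largest differences among them. The count of members called depended on single libraries: it was 1 without EE replicate 1 or EE replicate 2, 2 without EE replicate 3 and 7 without replicate 3 of the libraries labelled EC. The count over all features depended on them as well, at 912 to 3348 with 1 library left out, against 2568 with all libraries.

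Libraries labelled EC, whose cell type the markers left unsettled, were also set against progenitors. No member was called in either direction by limma. Of the 10, 5 had an unadjusted p below 0.05, with 1 higher (mamo) and 4 lower (GATAe, srp, cad and zfh2). The share of all features at that unadjusted threshold is not given. At the threshold for calls, 20% of 7762 features were called, 3.56% higher and 16.5% lower. The members' median was -0.18 and that of all features -0.46 as deposited, which became -0.05 after median-of-ratios scaling, where calls numbered 517 higher and 423 lower in place of 276 and 1280. Relative to that shift, the lower values of GATAe (-0.87 deposited, -0.40 scaled) and zfh2 (-0.95 and -0.60) were smaller and the higher values of mamo (1.22 and 1.70) and Hnf4 (0.47 and 0.92) larger. fkh and lab changed sign with scaling and were called under neither. None of the 11 other enteroblast and stem cell regulators tested was called, with a median of -0.11.

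Without progenitor replicate 2, srp was called lower in libraries labelled EC (-1.03, limma, adjusted p = 0.0090). More of the values depended on replicate 3 of the libraries labelled EC, which was the deepest library of the series (59500000 implied reads, against at most 42500000 in other wild type libraries). Its log2(RPKM + 1) lay 1.35 below the group mean in mamo, 1.07 below in fkh and 0.64 below in klu, and 0.70 above it in GATAe. Across all features it correlated with the other libraries of its group at r of 0.950 and 0.968, and those with each other at 0.974. Without it, 2 members were called against progenitors, mamo higher (log2 fold change 1.89, limma, adjusted p = 0.0017) and GATAe lower (-1.22, adjusted p = 0.0099). In EEs against libraries labelled EC, 7 members were then called, 3 higher and 4 lower, which added GATAe (1.65), srp (0.88) and fkh (-1.40). Calls over all features with any 1 library left out ran from 328 to 1758 against progenitors (1556 with all libraries). In EEs against libraries labelled EC they ran from 912 to 3348 (2568 with all libraries). The count over all features without this library alone is not given, so its counts describe the members only. Enterocyte markers summed to 1946 RPKM over 11 genes in it, against 874 and 3991 RPKM in replicates 1 and 2, and enteroendocrine markers to 1669 RPKM, against 2694 and 980 RPKM.

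**Figure D3:**
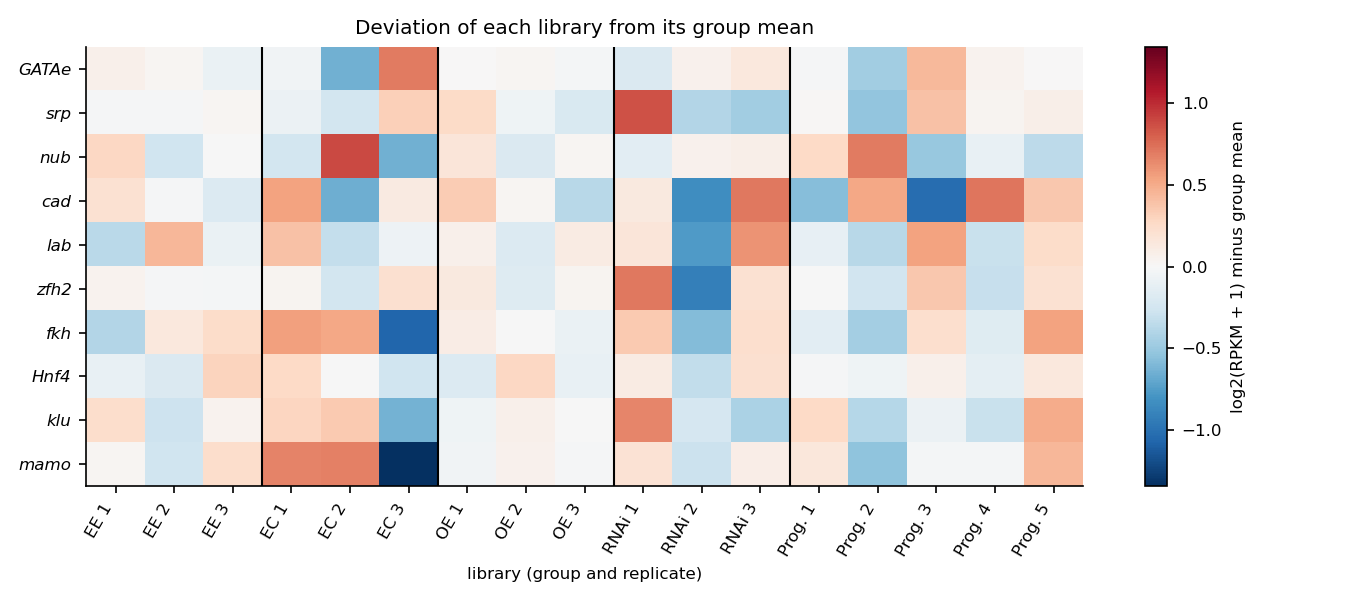
Deviation of log2(RPKM + 1) from the group mean (colour, log2 units) for the 10 factors (rows) in each of the 17 libraries (columns, with lines between groups). Replicate 3 of the libraries labelled EC stands out with mamo at -1.35, fkh at -1.07 and GATAe at 0.70, and Sox100B-RNAi replicate 2 with zfh2 at -0.92 and cad at -0.84.

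In the libraries labelled Sox100B-OE and Sox100B-RNAi, the design asked what a change of the factor, itself expressed in progenitors, does to their transcripts. The mean of Sox100B in the libraries labelled OE was, however, not above that of wild type progenitors. For Sox100B-OE against progenitors, 2 of 10 members were called higher (klu and lab) and 0 lower, while limma gave 6 higher and 2 lower at an unadjusted p below 0.05. The unadjusted counts have no share of all features beside them. Over 8918 features, 33.7% were called, 28.9% higher and 4.83% lower. With array weights, 6 of the 10 members and 3590 of the 8918 features were called. The members called numbered 5 without progenitor replicate 3, 1 without Sox100B-OE replicate 1 and 0 without Sox100B-OE replicate 2 or 3. Of all features, 1037 to 3219 were called with any 1 library left out, against 3009 with all libraries. The median log2 fold change was 0.46 over the members and 0.26 over all features. For Sox100B-RNAi against progenitors, 1 member was called higher (zfh2) and 1 lower (mamo) of 10. Over 8675 features, 25.3% were called, 23% higher and 2.26% lower, with a median of 0.13 over the members and 0.20 over all features. The members called numbered 1 without Sox100B-RNAi replicate 1 or 2 and 0 without replicate 3. Of all features, 625 to 2149 were called with any 1 library left out, against 2191 with all libraries.

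Scaling altered both comparisons. The median of all features moved to -0.37 in Sox100B-OE and -0.36 in Sox100B-RNAi after quantile normalization. Calls over all features in Sox100B-OE were 2578 higher and 431 lower as deposited. Median-of-ratios scaling gave 2127 and 937, and quantile normalization 1677 and 2426. In Sox100B-RNAi they were 1995 higher and 196 lower as deposited, against 1348 and 1432 after quantile normalization. mamo stayed below progenitors under each scaling in both, and klu stayed above progenitors in Sox100B-OE. zfh2 in Sox100B-OE was 0.50 on the deposited scale but -0.22 after quantile normalization. Likewise srp was 0.76 and -0.08, and Hnf4 0.41 and -0.20, none of them called under either. In Sox100B-RNAi, srp, cad, lab, Hnf4 and klu were also above 0 as deposited and below 0 after quantile normalization, without being called.

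**Figure D4:**
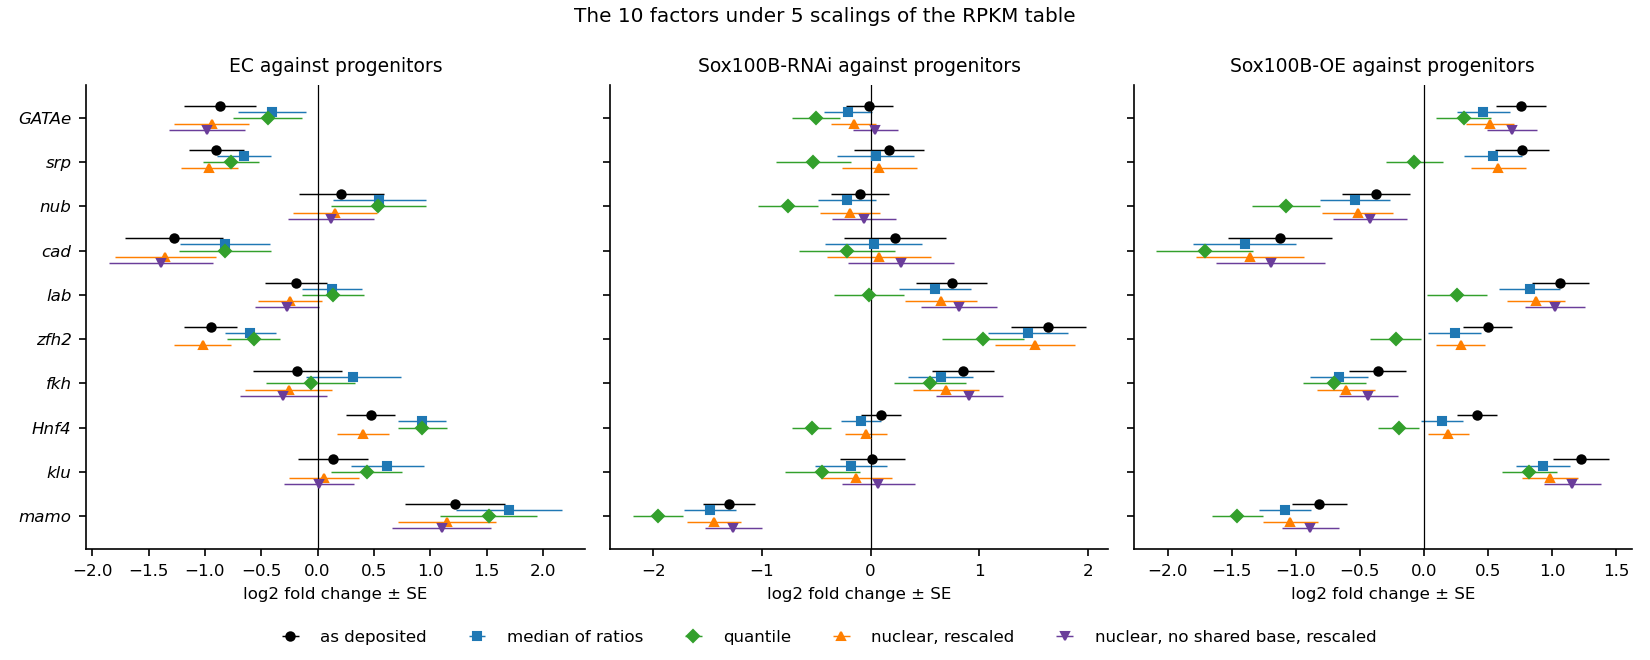
log2 fold change (x axes) with SE (bars) of the 10 factors (y axis) against progenitors under 5 scalings of the RPKM table, shown by marker and colour. The restriction to genes that share no exonic base leaves out srp, zfh2 and Hnf4. lab in Sox100B-OE lies between 0.26 and 1.06, and mamo in Sox100B-RNAi between -1.96 and -1.26.

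Among the Sox100B libraries, Sox100B-OE against Sox100B-RNAi called 0 of 10 members in either direction by limma. At an unadjusted p below 0.05 there were 6, with GATAe, klu and mamo higher and cad, zfh2 and fkh lower in Sox100B-OE. The share of all features at that unadjusted threshold is not given. Over 8848 features, 16% were called, 10.5% higher and 5.56% lower, and the median log2 fold change was 0.32 over the members and -0.04 over all features. Replicate 2 of Sox100B-RNAi was the lowest of its group in zfh2, cad, lab, fkh, Hnf4 and mamo. Without it, 3 members were called lower in Sox100B-OE: cad (-1.77, adjusted p = 0.0033), zfh2 (-1.6, adjusted p = 0.0021) and fkh (-1.50, adjusted p = 0.0016). Without Sox100B-RNAi replicate 1, klu was called higher (1.54, adjusted p = 0.0011). With any 1 library left out, 509 to 1281 of all features were called, against 1419 with all libraries.

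Markers of other cell types moved in the same comparison of Sox100B-OE with Sox100B-RNAi. Of 10 enteroendocrine markers, 2 were called higher in Sox100B-OE, the hormone genes NPF (8830 ± 2163 RPKM, against 726 ± 793 RPKM) and Tk (338 ± 95.4 RPKM, against 92.6 ± 46.3 RPKM). The hormone genes called lower were AstA (23.9 ± 8.30 RPKM, against 411 ± 34.5 RPKM), CCHa1 (19.9 ± 10.6 RPKM, against 331 ± 42.4 RPKM) and CCHa2 (65.3 ± 32.6 RPKM, against 728 ± 382 RPKM). Of the enterocyte markers, 9 were tested, with a median log2 fold change of 1.82, and Myo31DF was called higher (123 ± 36.2 RPKM, against 41.9 ± 13.0 RPKM). The hemocyte marker Sr-CI was called lower (0.354 ± 0.076 RPKM, against 3.91 ± 1.96 RPKM). The muscle marker bt (1.82 ± 0.33 RPKM, against 0.125 ± 0.041 RPKM) and the fat body marker apolpp (2.54 ± 0.70 RPKM, against 0.764 ± 0.216 RPKM) were called higher. Their part in the members' values was not tested.

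Hormone genes moved in the same libraries as the members of the Sox100B-RNAi comparison. Of 10 enteroendocrine markers, AstA (411 ± 34.5 RPKM in Sox100B-RNAi, against 68.2 ± 49.98 RPKM in progenitors) and CCHa2 (728 ± 382 RPKM, against 132 ± 32.2 RPKM) were called higher. NPF (726 ± 793 RPKM, against 5387 ± 1227 RPKM) and Tk (92.6 ± 46.3 RPKM, against 512 ± 172 RPKM) were called lower. The part of these differences in the values of zfh2 and mamo was not tested. Over all libraries, visceral muscle markers summed to 0.739 to 14.1 RPKM over 9 genes, trachea markers to 0.242 to 1.56 RPKM over 3 genes and fat body markers to 0.762 to 17.8 RPKM over 5 genes. The muscle marker bt was called higher in Sox100B-OE than in progenitors (1.82 ± 0.33 RPKM, against 0.097 ± 0.039 RPKM), and its part in the members' values was not tested.

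Of the 11 other enteroblast and stem cell regulators tested, 1 was called higher in Sox100B-RNAi than in progenitors, E(spl)mbeta-HLH, a Notch target (765 RPKM, against 279 RPKM; log2 fold change 1.53 ± 0.31, limma, adjusted p = 0.0034). The 1 called lower was Sox100B, the targeted gene. For Sox100B-OE against progenitors none of the 11 was called, with a median log2 fold change of 0.38.

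The genes whose levels most resembled each member over the 11 wild type libraries were taken from 8395 features by Pearson's r of log2(RPKM + 1). These values are a description, since the libraries fall into 3 groups and share the replicate that stands apart. For mamo they were fs(1)h (r = 0.98), Inx2 (0.98) and Pdk1 (0.97). Among those most like GATAe were CG42259 (0.97) and fws (0.97). The closest to zfh2 were CG44085 (0.99), Git (0.97) and Wsck (0.97). klu resembled cindr (0.98) and cib (0.98), Hnf4 resembled Rab35 (0.97), and cad resembled CG31678 (0.97) and scat (0.96). srp was closest to CG18476 (0.96) and Pino (0.95), and fkh to noc (0.95) and pds5 (0.93). The weakest matches were those of lab, with Grip (0.91), and of nub, with Cmpk (0.90). No member was among the 3 genes most like another member.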

How the data were processed

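RNA was sequenced from sorted midgut cells, and groups were taken from the sample titles. The authors deposited 1 table of RPKM values for 17490 features, and 1 feature with missing values was dropped. Per the labels, reads were processed with STAR and featureCounts 1.6.3 on BDGP6, and DESeq2 is listed. The read total behind each RPKM is not given in the sources used here. In each library 98.1 to 98.5% of low RPKM values equalled a whole number of reads (tolerance 0.05), and the size of 1 read gave the implied totals. These describe depth only and cover counting error only.

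Features that reached 1 RPKM in 3 or more of the libraries compared were tested with limma 3.58.1 in R 4.3.3 (lmFit, eBayes with trend, 2-sided, pseudocount 1) using only the libraries of the 2 groups. The procedure was tested on simulated data. Calls used the thresholds of the study's methods, applied there to counts. Symbols, positions and exonic bases came from the Ensembl annotation of BDGP6.

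The members and lists were chosen with earlier results of these data known. The genes named are all 10 members, up to 3 called genes with the largest change per list and comparison, and up to 3 most similar features per member, of which 1 is not reported here. Hormones, digestive enzymes and Myo31DF are named from the marker lists. Listed symbols esg, Dl and btl were not analysed here. Alternatives changed the pseudocount (0.1), the filter (none, or 3.5 RPKM), the scaling (median of ratios, quantile, nuclear features rescaled), the features (only genes sharing no exonic base), the fit (all libraries at once, array weights, replicate block), the thresholds (0.05, or a log2 fold change of 1) and the libraries (subsets of progenitors, each replicate left out).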

Additional observations from a re-analysis of the deposited data

How the results depend on the processing

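No called member changed direction under any alternative. Of 1187 member values under alternatives, 1074 kept their side of the threshold, 62 passed it newly and 51 no longer did. Counts of members called changed under these alternatives, the replicate block aside. For EEs against progenitors (5), 3 were called among genes sharing no exonic base, 3 in 1 fit of all libraries, 4 with no filter or with progenitor replicates 1 to 3, 6 with array weights or at an adjusted p of 0.05, and 3 to 5 without 1 replicate. For libraries labelled EC against progenitors (0), the count was 1 with a pseudocount of 0.1, 1 with nuclear features rescaled, 5 with array weights and 4 at an adjusted p of 0.05, and 0 to 2 without 1 replicate. For EEs against libraries labelled EC (4), it was 2 with no filter, 2 among genes sharing no exonic base, 3 with median-of-ratios scaling or nuclear rescaling, 6 at an adjusted p of 0.05 and 7 with array weights, and 1 to 7 without 1 replicate. For Sox100B-RNAi against progenitors (2), it was 1 with no filter, median-of-ratios scaling, quantile normalization, nuclear rescaling or either subset of progenitors (replicates 1 to 3, or 4 and 5), 0 among genes sharing no exonic base, 3 at an adjusted p of 0.05, and 0 to 2 without 1 replicate. For Sox100B-OE against progenitors (2), it was 4 with quantile normalization, 1 among genes sharing no exonic base, 6 with array weights, 6 at an adjusted p of 0.05 and 5 with progenitor replicates 4 and 5, and 0 to 5 without 1 replicate. For Sox100B-OE against Sox100B-RNAi (0), it was 1 with quantile normalization, nuclear rescaling or 1 fit, 2 with array weights, 4 at an adjusted p of 0.05, and 0 to 3 without 1 replicate. In the order of comparisons above, array weights called 3507, 3412, 4472, 2080, 3590 and 1530 of all features tested. An adjusted p of 0.05 called 3984, 3234, 3914, 2969, 3997 and 2561. The features tested numbered 8161, 7762, 7847, 8675, 8918 and 8848. Without 1 replicate, calls ran from 1460 to 3091, 328 to 1758 and 912 to 3348 in the first 3 comparisons. In the last 3 they ran from 625 to 2149, 1037 to 3219 and 509 to 1281. The restriction to genes sharing no exonic base drops srp, zfh2 and Hnf4 by construction, and the causes of the other changes were not tested.

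In no comparison did every pair of samples with the same replicate number deviate together at a correlation above 0.1 (the lowest pair was at -0.20 to 0.04), nor did every sample correlate best with its own number, so the numbers are not taken as pairs. In Sox100B-OE against Sox100B-RNAi, replicates 1 and 3 paired at 0.36 and 0.18, above the highest pair of unlike numbers (0.13), and replicate 2 at 0.04. A partial pairing there was not tested. With the replicate block, 4 members were called for EEs against progenitors (fkh was lost, at -0.92 and an adjusted p of 0.0143), 0 for libraries labelled EC against progenitors, 4 for EEs against libraries labelled EC, 2 for Sox100B-RNAi and 2 for Sox100B-OE against progenitors, and 2 for Sox100B-OE against Sox100B-RNAi (fkh and klu). Over all features, the ratio of the highest to the lowest count of calls was widest for libraries labelled EC against progenitors, with 1556 as deposited, 63 with the replicate block and 3412 with array weights. Among genes sharing no exonic base, with columns rescaled, 174 of 4636 were called for Sox100B-RNAi and 650 of 4744 for Sox100B-OE against progenitors. Among all features tested these were 2191 of 8675 and 3009 of 8918. Depth limited nub and srp most, which rested on as few as 35 and about 58 implied reads.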
